A study of Mus musculus with 4 samples.

Results

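Natural killer cells were taken from single-cell RNA sequencing of fracture calluses of the tibia in male C57BL/6J mice aged 20 months. The calluses had been treated with a microgel that contained adenosine (adenosine group, 2 libraries) or with a control microgel without it (control group, 2 libraries), and all were collected 7 days after treatment. The labels give the tissue as bone marrow while the sample titles name the callus, and viable cells were sorted after red cell lysis, with no other gate named. No genotype other than the strain is given, and nothing says whether a library came from 1 animal or from several. A natural killer cell was a barcode with at least 200 genes, under 10% mitochondrial UMIs (unique molecular identifiers, each a counted RNA molecule), at least 2 UMIs in sum of Ncr1, Klrb1c and Klre1, and no UMI of Cd3e, Cd3d, Cd3g, Csf1r, Siglech or Cd79a. The cells were thus chosen by their own measured counts, so their levels of the 3 gate genes and the absence of the excluded genes are a description and not a finding. The gate held 148 of 33698 kept cells (35274 barcodes were deposited), namely 72 and 30 cells in adenosine libraries 1 and 2, and 39 and 7 cells in control libraries 1 and 2.

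Natural killer cells are innate lymphocytes that kill infected, stressed or transformed cells without an antigen receptor rearranged for a target. They weigh signals from activating receptors against inhibitory receptors that read MHC class I, and they release granules with perforin and granzymes. Interleukin-15 keeps them alive, and interleukins 12 and 18 drive them to make interferon gamma. Extracellular adenosine acts on lymphocytes mainly through the receptor encoded by Adora2a, which raises cAMP.

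The gate rests on 3 receptor genes, and the fourth marker, Gzma, was not part of it. Ncr1 (NKp46, an activating receptor) lies on chromosome 7 at 4337724 to 4345164 of GRCm38, on the plus strand. Klrb1c (NK1.1, a lectin-like receptor; 128778485 to 128789215, minus strand) and Klre1 (a lectin-like receptor; 129577905 to 129585827, plus strand) lie on chromosome 6, where the natural killer gene complex also holds Klrd1, Klrk1 and the Ly49 genes up to Klra1 at 130363917 to 130386874. Gzma (granzyme A, a granule protease) lies on chromosome 13 at 113093825 to 113100981, on the minus strand. Their promoters, from 250 bases before to 50 after the RefSeq start on GRCm38.p6, are shown because the 4 genes mark the cells together. Each is written 5′ to 3′ on the gene's strand, and capitals mark TGTGGT or its reverse complement ACCACA, the core letters read by RUNX factors.
Ncr1 (chr7:4337465-4337764, plus): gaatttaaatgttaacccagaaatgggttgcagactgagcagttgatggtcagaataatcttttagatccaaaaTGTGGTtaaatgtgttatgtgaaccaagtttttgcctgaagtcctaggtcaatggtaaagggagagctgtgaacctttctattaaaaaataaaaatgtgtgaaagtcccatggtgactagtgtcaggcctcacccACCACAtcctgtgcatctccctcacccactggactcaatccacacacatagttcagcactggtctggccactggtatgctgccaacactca
Klrb1c (chr6:128788592-128788891, minus): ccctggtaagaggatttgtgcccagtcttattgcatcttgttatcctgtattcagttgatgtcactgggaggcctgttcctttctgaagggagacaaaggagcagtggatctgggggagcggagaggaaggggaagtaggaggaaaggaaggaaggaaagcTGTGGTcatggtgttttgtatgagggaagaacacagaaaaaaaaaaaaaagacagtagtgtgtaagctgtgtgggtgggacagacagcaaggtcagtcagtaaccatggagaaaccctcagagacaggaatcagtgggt
Klre1 (chr6:129577963-129578262, plus): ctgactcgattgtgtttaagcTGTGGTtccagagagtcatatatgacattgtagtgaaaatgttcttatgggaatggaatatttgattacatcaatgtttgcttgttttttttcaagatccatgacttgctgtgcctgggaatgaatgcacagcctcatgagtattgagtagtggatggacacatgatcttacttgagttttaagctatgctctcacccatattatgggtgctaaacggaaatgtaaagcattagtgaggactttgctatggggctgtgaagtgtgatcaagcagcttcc
Gzma (chr13:113100932-113101231, minus): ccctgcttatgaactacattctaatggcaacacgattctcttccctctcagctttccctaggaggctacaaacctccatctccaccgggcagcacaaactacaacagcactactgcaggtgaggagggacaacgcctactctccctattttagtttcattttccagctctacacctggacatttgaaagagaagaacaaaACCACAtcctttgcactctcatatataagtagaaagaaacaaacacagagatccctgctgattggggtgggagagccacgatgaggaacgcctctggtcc
Ncr1 held 2 matches and each of the other promoters held 1. Of 27025 promoters of the same length, 4573 (16.9%) held at least 1 match on either strand. A match is a description of letters, not of binding.

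The gated cells carried the natural killer profile outside the gate genes. Counts below are UMIs summed over the gated cells of a library and scaled to counts per 1000000 UMIs of those cells (CPM). Nkg7, a granule membrane protein, was at 944 and 1560 CPM in adenosine libraries 1 and 2 and at 1067 and 1376 CPM in control libraries 1 and 2. Klrd1 (CD94, the partner chain of the NKG2 receptors) was at 674 and 1059 CPM in the adenosine libraries and at 697 and 1113 CPM in the control libraries. Il2rb, the beta chain shared by the interleukin-2 and interleukin-15 receptors, was at 1128 and 651 CPM in the adenosine libraries and at 913 and 525 CPM in the control libraries. The adenosine and control values overlapped or interleaved for each of these genes. Ranked by mean log2 ratio over all other kept cells of the same library, with 10 CPM added, the leading genes outside the gate were Klra4, Gzma, Klra7, Clnk (an adaptor of immune receptors), Xcl1, Il2rb, Txk (a Tec family kinase), Itga2 (CD49b), Klrk1 and Klra8. This ranking describes cells picked by the gate and carries no test. In adenosine library 2 the other kept cells also held some of these genes. There Klra8 was at 160 CPM, Klrk1 at 128 CPM and Gzma at 64.9 CPM outside the gated cells. In adenosine library 1 these were at 1.42, 16.45 and 1.63 CPM, and in control library 1 at 0.811, 16.1 and 2.03 CPM. Klra4 and Klra7 stayed low there, at 5.29 and 3.16 CPM in adenosine library 2.

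RNA of other cell types was present in the gated cells. Of 6 monocyte and macrophage markers, C1qa and Ms4a7 were at 0 in all gated cells, and Lyz2 was at 166 and 184 CPM in the adenosine libraries and 466 and 238 CPM in the control libraries. Of 6 B cell markers 3 were at 0, among them Ms4a1, and the list summed to 593 and 202 CPM in the adenosine libraries and 165 and 87.6 CPM in the control libraries. Most of that was Igkc, an immunoglobulin light chain, at 409 and 104 CPM in the adenosine libraries and 55.0 and 25.0 CPM in the control libraries, and Ighm, a heavy chain, at 182 and 92.1 CPM in the adenosine libraries and 110 and 62.6 CPM in the control libraries. Of the 148 cells, 20 had a UMI of Trac, Cd8a or Cd8b1, genes of the T cell receptor and coreceptor, with 6 and 12 in adenosine libraries 1 and 2 against 2 and 0 in control libraries 1 and 2. Adenosine library 2 therefore stood apart, with 12 of its 30 cells. It also held 713 cells with at least 2 gate UMIs and at least 2 Cd3 UMIs, which the gate leaves out, against 56 in adenosine library 1 and 50 and 7 in control libraries 1 and 2. Results on the share of cells are given with and without the cells that had a UMI of Trac, Cd8a or Cd8b1. The 10 T cell markers summed to 529 and 904 CPM in gated cells of the adenosine libraries and to 429 and 788 CPM in those of the control libraries. The 9 neutrophil markers, none of which was at 0, summed to 8768 and 7507 CPM in the adenosine libraries and to 19670 and 9658 CPM in the control libraries. The 15 natural killer genes outside the gate summed to 9803 and 11420 CPM in the adenosine libraries and to 9489 and 12100 CPM in the control libraries, so in control library 1 the neutrophil sum was the larger. Hemoglobin and other red cell markers summed to 1206 and 0 CPM in the adenosine libraries and to 11.0 and 0 CPM in the control libraries, so they came almost wholly from adenosine library 1. Neutrophil-rich cells had at least 5% of their UMIs from S100a8 and S100a9 and no UMI of the excluded genes, and should lack the gate genes. At least 2 gate UMIs were seen in 0.0841% and 0% of them in the adenosine libraries and in 0.0608% and 0.0324% in the control libraries. These were 4 and 0 cells of the adenosine libraries and 3 and 1 cells of the control libraries. All of them met the gate, so 8 of the 148 gated cells were neutrophil-rich. The neutrophil-rich cells had a median of 2790 to 3172 UMIs per cell by library, against a median of 5330 in the gated cells.

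Cells at the edge of the gate were intermediate for Nkg7, Il2rb, Gzma and S100a8, and highest for Klrd1. The 7 cells with exactly 2 gate UMIs had 114 CPM of Nkg7, 45.5 CPM of Il2rb, 977 CPM of Klrd1, 90.9 CPM of Gzma and 8682 CPM of S100a8, a neutrophil gene. The 187 cells just outside, with 1 gate UMI and all other conditions met, had 80.2 CPM of Nkg7, 10.5 CPM of Il2rb, 66.0 CPM of Klrd1, 1.5 CPM of Gzma and 52160 CPM of S100a8. The other 141 gated cells had 3 or more gate UMIs, with a median of 12, and carried 1174 CPM of Nkg7, 974 CPM of Il2rb, 777 CPM of Klrd1, 1259 CPM of Gzma and 4346 CPM of S100a8. For Nkg7 and Il2rb the edge cells lay nearer to the cells outside, and for Klrd1 and S100a8 nearer to the other gated cells. All 3 gate genes were found in 101 of the 148 cells.

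Natural killer cells made up 0.813% (Wilson 95% interval 0.646 to 1.02) and 0.342% (0.240 to 0.488) of kept cells in adenosine libraries 1 and 2, and 0.414% (0.303 to 0.565) and 0.105% (0.0511 to 0.217) in control libraries 1 and 2. Adenosine library 2 lay below control library 1, so the groups overlapped. The mean was 0.577% ± 0.333 in the adenosine group and 0.260% ± 0.218 in the control group (SD, n = 2 each), a log2 ratio of 1.15. A two-sided exact permutation test gave p = 0.667, and the smallest p this design allows is 0.333. Without the cells with Trac, Cd8a or Cd8b1 the counts were 66 and 18 in the adenosine libraries and 37 and 7 in the control libraries, with a log2 ratio of 0.93. As a share of natural killer, T and B cells together, they made up 11.1% and 1.61% in the adenosine libraries and 6.79% and 5.26% in the control libraries, a log2 ratio of 0.08 (exact permutation p = 1, n = 2 each). Leaving out control library 1 gave the highest log2 ratio, 2.45, and leaving out adenosine library 1 the lowest, 0.40. Intervals cover counting error only, and a share does not tell more natural killer cells from fewer cells of other kinds.

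**Figure D1:**
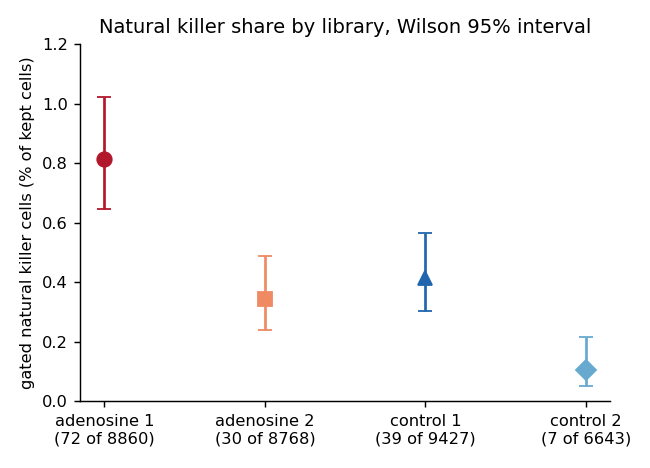
Gated natural killer cells as a percentage of kept cells (vertical axis) in each library (horizontal axis), with Wilson 95% intervals as bars and the cell counts under each name. Adenosine library 1 is highest at 0.813% and control library 2 lowest at 0.105%, with adenosine library 2 below control library 1.

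For the comparison with T cells, T cells were barcodes of the same quality with at least 2 Cd3 UMIs and no gate gene UMI. They numbered 160, 462 and 123 in adenosine 1, adenosine 2 and control 1, the 3 libraries with at least 10 natural killer cells. Cd3 cells with at least 2 gate UMIs, 56, 713 and 50 in these libraries, were in neither class. The differences below therefore do not cover those cells. Control library 2, with 7 natural killer cells, was left out of the fits and its values are given for view only. Of 8331 genes tested by edgeR's quasi-likelihood test with the library as a block, 385 (4.62%) passed an adjusted p of 0.05, 200 (2.4%) higher and 185 (2.22%) lower in natural killer cells. Genes of either gate were left out, but both classes were chosen on genes of these same cells, so genes that travel with the gate genes had to differ. The calls describe the profile and are no independent evidence of it. Leaving out a library moved the number called to between 103 (without control 1) and 781 (without adenosine 2), with 115 without adenosine 1.

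Receptor genes made up 5 of the 8 called genes with the largest rises, among those of at least 50 CPM that rose in each of the 3 libraries. Klra4 (Ly49D, an activating receptor in C57BL/6 mice) was at 765 and 472 CPM in natural killer cells of the adenosine libraries and 873 CPM in those of control 1, against 0, 0.639 and 0 CPM in their T cells. Klrb1a, a relative of the gate gene Klrb1c, was at 118, 155 and 62.4 CPM in natural killer cells and at 0 in T cells of all 3 libraries, so no fold is given. Klri2, a lectin-like receptor that pairs with Klre1 in mice, was 6.81 higher on the log2 scale (SE 0.45, edgeR adjusted p = 7.9e-05). The other three were Vegfc, a growth factor for lymphatic vessels, at 213, 92.1 and 150 CPM in natural killer cells of adenosine 1, adenosine 2 and control 1 and 0, 0.213 and 1.27 CPM in T cells, D5Ertd615e, at 104, 51.8 and 165 CPM in natural killer cells and 0, 0.426 and 0 CPM in T cells, and Eya1, a transcriptional coactivator, at 134, 109 and 183 CPM in natural killer cells and 0, 0.639 and 7.61 CPM in T cells. Of 15 natural killer genes outside the gate, 12 were higher, none was lower and 3 were not called, with a median log2 difference of 2.28 against -0.02 over all genes tested. Klrk1 (NKG2D, which reads stress ligands) was higher by 3.97, Klrd1 by 3.07 and Styk1, a kinase-like receptor, by 5.96 on the log2 scale. Nkg7 was not called: its T cell levels were 410, 2276 and 445 CPM in adenosine 1, adenosine 2 and control 1, so T cells of adenosine 2 exceeded the natural killer cells of any library.

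Ly49 receptors, which mostly read MHC class I, were higher for 6 of 7 tested members, with Klra6 not called. Their median log2 difference was 5.69. Klra7 was at 354, 558 and 282 CPM in natural killer cells of adenosine 1, adenosine 2 and control 1 and at 4.75, 1.92 and 15.2 CPM in T cells. Klra8 (Ly49H, the receptor for a cytomegalovirus protein in C57BL/6 mice) was at 531, 679 and 631 CPM in natural killer cells and at 0, 17.9 and 0 CPM in T cells. In control library 2 its level was 12.5 CPM over 7 natural killer cells. All other kept cells of adenosine 2 together held 160 CPM of Klra8, and the T cells here leave out Cd3 cells with a gate gene UMI. Ly49 genes are close copies of one another, so reads could be split or lost between members in the authors' counting.

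Ly49 genes were patchy from cell to cell. Of 6 genes scored, 0 were found in 37 cells, 1 in 21 cells, 2 in 25, 3 in 29, 4 in 28, 5 in 8 and all 6 in none of the 148 cells. Klra4 and Klra8 were found together in 48 cells, Klra4 without Klra8 in 14, Klra8 without Klra4 in 15 and neither in 71. Cells with a Klra4 UMI held a median of 8.5 UMIs of it and cells with a Klra8 UMI a median of 7. At least 1 of the 6 genes was found in 52 of 72 and 23 of 30 cells of the adenosine libraries and in 30 of 39 and 6 of 7 cells of the control libraries.

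**Figure D2:**
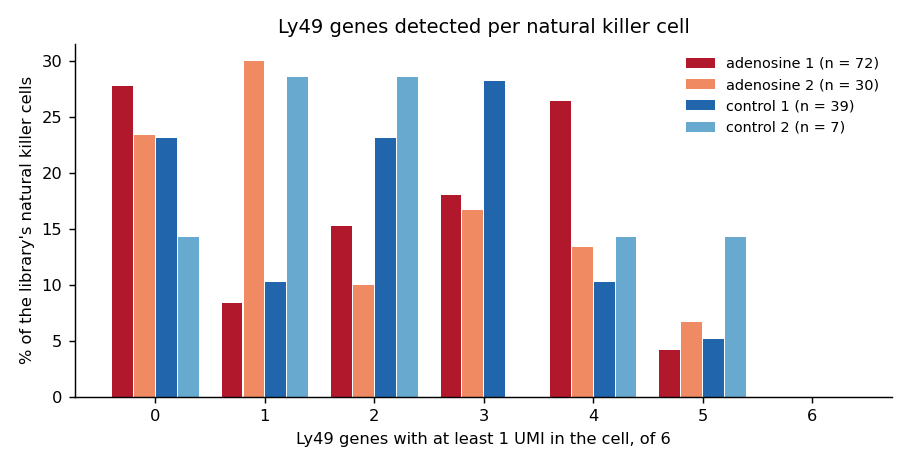
Number of Ly49 genes with at least 1 UMI in a cell, of 6 scored (horizontal axis), against the percentage of each library's natural killer cells (bars, 1 colour per library). Cells with 0 genes and cells with 3 or 4 genes are both frequent, and no cell had all 6.

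Signalling genes differed in both directions. Of 18 tested genes for activating receptors and adaptors, 9 were higher, 2 lower and 7 not called, with a median of 1.11. Higher members included Tyrobp (DAP12) by 1.77, Fcer1g by 2.01, Syk by 1.79, Plcg2 by 2.24 and Cd244a (2B4) by 4.33 on the log2 scale. Cd247, the zeta chain of the T cell receptor complex that natural killer cells also use, was lower by 1.06 (log2 difference -1.06, SE 0.21, edgeR adjusted p = 0.020), at 297, 397 and 370 CPM in natural killer cells and 770, 768 and 588 CPM in T cells of adenosine 1, adenosine 2 and control 1. Slamf6 was lower as well (log2 difference -1.89). Among 10 inhibitory receptors and brakes, Klrc1 (NKG2A) was higher by 2.94 and Pdcd1 (PD-1) lower, with a log2 difference of -5.06, and 8 were not called.

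Granule genes did not all differ. Of 15 tested, 5 were higher, 1 was lower and 9 were not called, with a median of 0.64. Gzma was at 1462, 593 and 924 CPM in natural killer cells of adenosine 1, adenosine 2 and control 1 and at 34.5, 25.1 and 2.54 CPM in their T cells, a log2 difference of 5.46 (SE 0.50, edgeR adjusted p = 3.6e-04). Serpinb9 and Serpinb6b, inhibitors of granule proteases, were higher by 2.35 and 2.12, Ctsw by 1.54 and Fasl by 1.32. Gzmk was lower (log2 difference -3.99), at 2.27, 46.1 and 0 CPM in natural killer cells and 73.7, 398 and 87.5 CPM in T cells. Prf1 (perforin) was at 309, 184 and 238 CPM in natural killer cells and 27.3, 184 and 24.1 CPM in T cells and was not called (adjusted p = 0.11), since the T cells of adenosine 2 matched their natural killer cells. Gzmb was not called either, at 329, 51.8 and 69.7 CPM in natural killer cells and 28.5, 145 and 67.2 CPM in T cells.

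**Figure D3:**
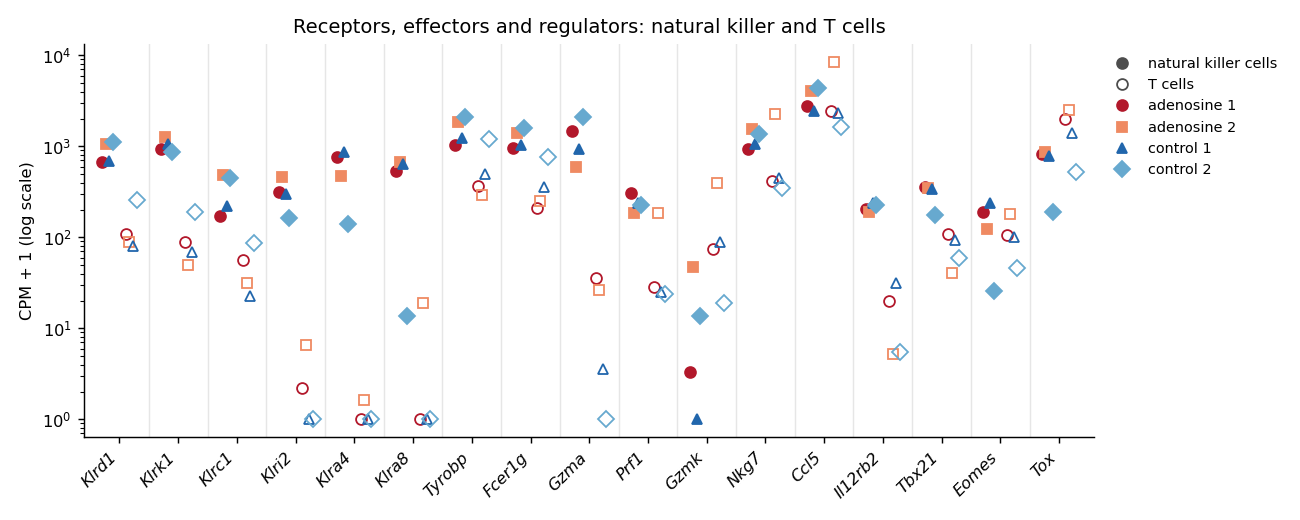
CPM plus 1 on a log axis (vertical) for 17 genes (horizontal) in natural killer cells (filled) and T cells (open), 1 symbol per library. Klri2, Klra4 and Gzma are apart by more than a factor of 10 in every library, while for Nkg7, Prf1 and Ccl5 the T cells of adenosine 2 reach or pass the natural killer cells.

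Cytokine receptors and regulators followed. Of 18 tested receptor and JAK-STAT genes, 6 were higher, 1 lower and 11 not called, with a median of 0.16. Il12rb2 (log2 difference 3.85), Il18rap (2.28), Il18r1 (1.78), Il2rb (1.56), Stat4 (1.02) and Jak1 (0.83) were higher, genes of signalling by interleukins 12, 18 and 15, and Stat5b was lower (-1.07). Of 11 cytokines and chemokines, Xcl1, which attracts cross-presenting dendritic cells, was higher by 3.25 and 10 were not called, where 4.62% of all genes tested were called. Ifng was not called, at 11.4, 23 and 25.7 CPM in natural killer cells and 14.3, 125 and 10.2 CPM in T cells, where the T cells of adenosine 2 were the high ones. Of 16 transcription factors, Tbx21 (T-bet) was higher by 2.18, Zeb2 by 1.31 and Id2 by 1.21, Tox was lower (-1.28) and 12 were not called. Eomes, a factor of natural killer and CD8 T cells, was among those, at 188, 121 and 238 CPM in natural killer cells and 106, 179 and 100 CPM in T cells. Among trafficking genes, Ccr2, a receptor for monocyte chemokines, was higher (log2 difference 2.29) and Ccr7, a receptor for lymph node homing, was lower (-3.02).

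Adenosine genes were tested for 6 of 11 members, and 1 was higher, 3 lower and 2 not called. Adora2a, the adenosine receptor that raises cAMP, was at 54.5, 92.1 and 95.4 CPM in natural killer cells of adenosine 1, adenosine 2 and control 1 and at 17.8, 30.9 and 16.5 CPM in their T cells. Every natural killer value lay above every T cell value of these libraries, and the log2 difference was 1.81 (SE 0.34, edgeR adjusted p = 0.016). Control library 2 had 25.0 CPM in natural killer cells, from 2 UMIs, and 13.6 CPM in T cells. Adora1, Adora2b and Adora3 had no UMI in the 148 cells, which limits each to 3 UMIs of the total or 37.5 CPM in the smallest library and 6.81 CPM in the largest. Entpd1 (CD39, which breaks down extracellular ATP) was lower with a log2 difference of -1.84, Adk (adenosine kinase) with -1.45 and Dpp4 (CD26) with -2.98. Nt5e (CD73, which makes adenosine) was at 6.81, 28.8 and 29.3 CPM in natural killer cells and 114, 9.15 and 129 CPM in T cells and was not called. Of 14 cAMP genes only Pde3b, a cAMP phosphodiesterase, was called, higher by 1.13, and the NR4A genes and Crem tested were not called. Over all genes tested 4.62% were called, so 1 call in so short a list says little about the list.

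**Figure D4:**
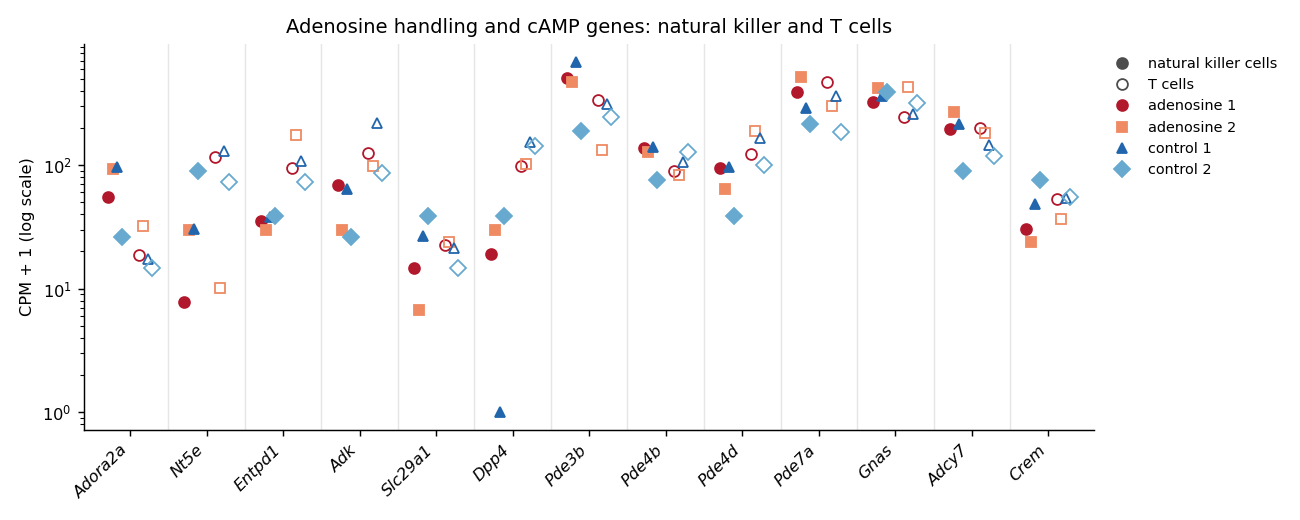
CPM plus 1 on a log axis (vertical) for adenosine and cAMP genes (horizontal) in natural killer cells (filled) and T cells (open), 1 symbol per library. Adora2a is higher in natural killer cells of all 4 libraries, while Entpd1, Adk and Dpp4 are lower in them.

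No member was called of 13 MHC class I genes (median log2 difference -0.30), 16 cell cycle genes (-0.34), 11 dissociation and stress genes (-0.05) or 10 genes of type 1 innate lymphoid cells and tissue residency (0.09). Of 13 interferon-response genes, Ly6a was lower (-2.76) and 12 were not called. With 4.62% of all genes tested called, counts of 0 or 1 in lists this short say little about the lists. Among genes of maturation, Kit was higher by 2.91 and Thy1 lower (-1.28) besides Xcl1 and Zeb2. T cells carried more neutrophil RNA: 6 of 9 neutrophil markers were lower in natural killer cells, with S100a8 at 3694, 2568 and 7134 CPM in natural killer cells and 8187, 13130 and 19090 CPM in T cells. The part of this RNA in the other differences was not tested. Of 10 T cell markers 8 were lower, among them Trac (-3.68), Cd5 (-7.22) and Cd4 (-5.81). Epha3, an ephrin receptor, was at 0, 0 and 3.67 CPM in natural killer cells and 155, 16.0 and 127 CPM in T cells. Gpm6b, Izumo1r, Tox2, Itgb8 and Tcrg-C2, also among the genes with the largest falls, had no UMI in natural killer cells of any library. Of the other marker lists, Tcf4, listed for plasmacytoid dendritic cells, was higher by 2.21. Of 3 monocyte and macrophage markers tested, Lyz2 was lower (-1.74), Ccr2, also a trafficking gene, was higher (2.29) and 1 was not called. No B cell, type 2 or type 3 innate lymphoid or red cell marker tested was called.

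Cells with and without Il7r, the receptor chain for interleukin-7, differed in a group of genes. The split was chosen after its values were seen, so it carries no test. Il7r was found in 19 of 72 and 12 of 30 cells of the adenosine libraries and in 14 of 39 and 0 of 7 cells of the control libraries, at a median of 5512 UMIs per cell with it and 5166 without it. A gene was kept if its mean over adenosine 1, adenosine 2 and control 1 reached 50 CPM with Il7r or without it. A gene low without Il7r could pass only through the cells with it, so these counts only describe the split. Of the 11 genes of type 1 innate lymphoid cells and tissue residency, 8 besides Il7r were kept. All 8 were higher in Il7r cells of each of these libraries, as were 725 of the 4434 genes kept. At least a 2-fold rise in each of these 3 libraries, with 10 CPM added, was met by 6 of the 8, against 29 of 4434 genes (0.654%). Their median log2 ratio was 2.36, against 0.01 over all genes. Cxcr6, a chemokine receptor of resident lymphocytes, was at 161, 179 and 114 CPM with Il7r and at 17.6, 65.6 and 0 CPM without it. Itga1 (CD49a) was at 151, 239 and 104 CPM with Il7r and at 55.7, 18.8 and 12 CPM without it. Cd200r1, an inhibitory receptor, was at 161, 149 and 161 CPM with Il7r and at 20.5, 18.8 and 24.0 CPM without it. Rora, a transcription factor of innate lymphoid cells, was at 474, 254 and 540 CPM with Il7r and at 126, 103 and 102 CPM without it. These 4 genes, whose values with and without Il7r did not overlap, are examples from the 8. How many of all genes kept had such values was not counted. Tnfsf10, also of the 8, was at 60.5, 89.5 and 56.8 CPM with Il7r and at 55.7, 9.38 and 5.99 CPM without it.

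A 2-fold fall in each library was met by 9 of 4434 genes (0.203%), and Gzma was one, at 393, 209 and 246 CPM with Il7r and 1773, 834 and 1353 CPM without it. Eomes was at 171, 59.7 and 66.3 CPM with Il7r and 193, 159 and 347 CPM without it, lower in each library. Zeb2, a factor of late maturation, was at 242, 283 and 180 CPM with Il7r and 448, 319 and 701 CPM without it. Of 6 Ly49 genes none fell 2-fold in every library, though 4 were lower in each. Over all genes kept, 640 of 4434 were lower in each library. Tbx21 (494, 343 and 388 CPM with Il7r, 317, 347 and 305 CPM without it) and Klrk1 (1058, 1014 and 1079 CPM with Il7r, 885, 1406 and 1030 CPM without it) showed overlapping values. T cell genes were mixed across the split. Of 10 listed T cell markers 4 reached the 50 CPM mean, none rose 2-fold in each library, and only Trbc2 was higher in each. The next genes, Tcrg-C4 and Themis, are not on that list. Tcrg-C4, a gamma chain constant gene, was at 101, 29.8 and 170 CPM with Il7r and 41.0, 9.38 and 0 CPM without it, and Themis, a T cell development gene, was at 20.2, 149 and 18.9 CPM with Il7r and 2.93, 56.3 and 0 CPM without it, both at least 2-fold higher in each library. Trbc2 was at 151, 269 and 189 CPM with Il7r and 76.2, 225 and 77.9 CPM without it. Trbc1 was at 282, 373 and 303 CPM with Il7r and 319, 281 and 162 CPM without it. Trdc was at 30.2, 44.8 and 9.47 CPM with Il7r and 58.6, 28.1 and 12 CPM without it. Cd8a and Cd8b1 were found in adenosine 2 alone, at 29.8 and 14.9 CPM with Il7r and 37.5 and 56.3 CPM without it. Trac was at 0, 179 and 18.9 CPM with Il7r and 23.4, 18.8 and 0 CPM without it. The part of T cell RNA in the split was not tested.

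**Figure D5:**
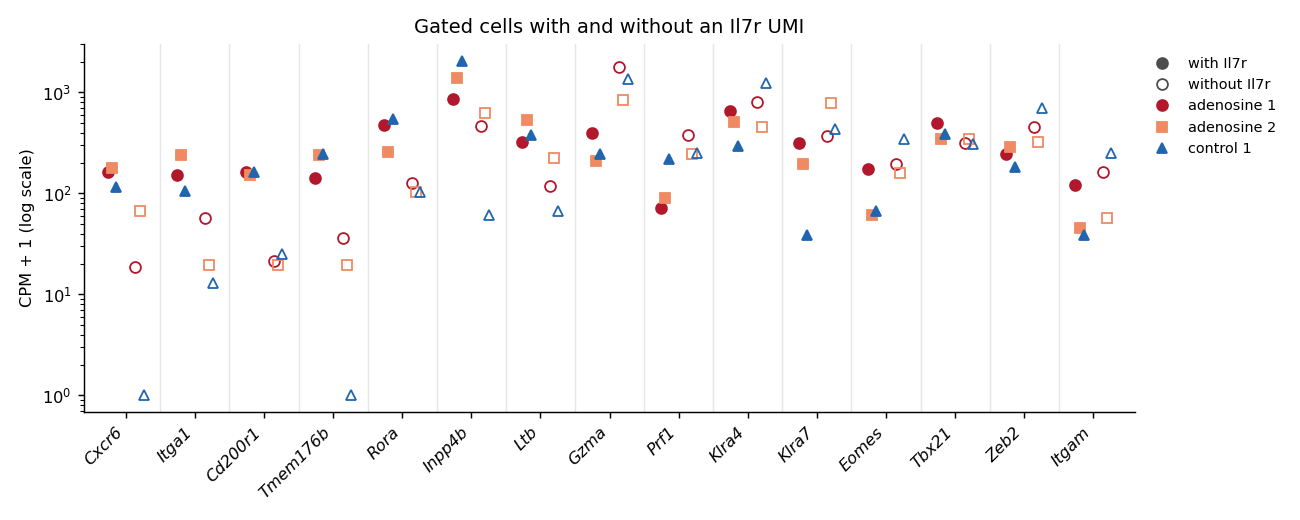
CPM plus 1 on a log axis (vertical) for 15 genes (horizontal) in gated cells with Il7r (filled) and without it (open) in the 3 libraries that held both. Cxcr6, Itga1, Cd200r1, Tmem176b, Rora, Inpp4b and Ltb lie higher with Il7r, and Gzma lies lower, in each library.

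The maturation stages by Cd27 and Itgam (CD11b), early and late markers in mice, were thinly filled. Cd27 without Itgam was found in 22 and 12 cells of the adenosine libraries and 7 and 2 of the control libraries. Itgam without Cd27 was found in 19 and 3 cells of the adenosine libraries and 7 and 2 of the control libraries, and neither gene in 22 and 12 against 17 and 2 cells. Only adenosine 1 held 10 cells of each stage, so the planned test between stages could not be made. There, Itgam cells had 2070 CPM of Gzma and 1124 CPM of Hmgb2, a chromatin gene high in dividing cells, and Cd27 cells 2615 and 316 CPM. For Gzma, 1 Cd27 cell held 205 of the 323 UMIs of its stage, and 1 Itgam cell held 93 of 245. In Itgam and Cd27 cells Gzma was at 1525 and 508 CPM in control 1, and at 189 and 458 CPM in adenosine 2. Dividing cells, with a UMI of Mki67 or Top2a, numbered 10 and 4 in the adenosine libraries and 6 and 3 in the control libraries. They had a median of 9775 UMIs per cell against 5076 in the other gated cells, and the count was not adjusted for depth.

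Between adenosine and control natural killer cells no gene was called. The edgeR quasi-likelihood test compared 2 adenosine libraries with control library 1 alone, which was assumed to vary like them, and 0 of 5903 genes (0%) passed an adjusted p of 0.05, while 130 had an unadjusted p under 0.05 and the lowest adjusted p was 0.057. DESeq2 called 4 genes, all lower, and edgeR called 30 with RLE size factors (11 higher, 19 lower) and 0 with control 2 included (100 at an unadjusted p under 0.05). The genes named by the rule of lowest unadjusted p follow, and none passed the adjusted threshold. Ccl4, an inflammatory chemokine, was at 245 and 121 CPM in the adenosine libraries and 36.7 and 87.6 CPM in the control libraries. Notch1, a receptor of lymphocyte development, was at 74.9 and 51.8 CPM in the adenosine libraries and 11.0 and 25.0 CPM in the control libraries. Ifitm1 and Ifitm2, interferon-induced membrane proteins, were at 134 and 17.3 CPM and at 127 and 121 CPM in the adenosine libraries. In control library 1 they were at 0 and 40.4 CPM, but in control library 2, outside the fit, at 1539 and 838 CPM, and their direction reversed when that library was included. Ccl1 was at 0 in both adenosine libraries and at 198 and 0 CPM in the control libraries, and Pde7b, a cAMP phosphodiesterase, at 34.1 and 11.5 CPM in the adenosine libraries and 396 and 0 CPM in the control libraries. Both were thus high in control library 1 alone. Ngp, a neutrophil granule gene, was at 291 and 299 CPM in the adenosine libraries and 1673 and 12.5 CPM in the control libraries, and Cybb, a phagocyte oxidase subunit, at 36.3 and 63.3 CPM in the adenosine libraries and 319 and 0 CPM in the control libraries. Of 7 neutrophil markers tested none was called, with a median log2 difference of -1.93 against 0.02 over all genes. Retnlg went the other way, at 1303 and 858 CPM in the adenosine libraries and 605 and 87.6 CPM in the control libraries (log2 difference 0.85, SE 0.37). The part of neutrophil RNA in these differences was not tested.

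Effector and adenosine genes were not called, and their differences ran from near 0 to large with wide error. Gzmc, a granzyme, was at 13.6 and 0 CPM in the adenosine libraries and 139 and 263 CPM in the control libraries, with groups that did not overlap. The control values came from 38 UMIs in 3 cells and 21 UMIs in 2 cells. The log2 difference, from the fit without control library 2, was -3.84 (SE 0.73). Gzmb was at 329 and 51.8 CPM in the adenosine libraries and 69.7 and 325 CPM in the control libraries, which overlapped (log2 difference 1.56, SE 0.84). Gzma differed by 0.17 on the log2 scale (SE 0.47) and was at 1462 and 593 CPM in the adenosine libraries and 924 and 2089 CPM in the control libraries. Prf1 differed by 0.09 (SE 0.43), Tbx21 by 0.07 (SE 0.36) and Klrk1 by 0.07 (SE 0.35). Adora2a differed by -0.46 (SE 0.49), at 54.5 and 92.1 CPM in the adenosine libraries and 95.4 and 25.0 CPM in the control libraries. Pde3b differed by -0.47 (SE 0.34) and Crem, which cAMP induces, by -0.80 (SE 0.79). Xcl1 was at 229 and 357 CPM in the adenosine libraries and 481 and 1464 CPM in the control libraries, with groups that did not overlap, and was not called (log2 difference -0.73, SE 0.40, edgeR adjusted p = 0.998). 

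Whether natural killer and T cells changed differently between adenosine and control was tested on the same 3 libraries. The edgeR interaction term was called for 3 of 9357 genes (0.0321%), Rab27b, Meis1 and Arhgap6. Rab27b, a vesicle transport GTPase, was at 150 and 115 CPM in natural killer cells of the adenosine libraries and 84.4 CPM in those of control 1, and at 1.19 and 0.639 CPM against 52.0 CPM in T cells. Meis1, a homeobox factor of blood progenitors, was at 127 and 11.5 against 14.7 CPM in natural killer cells and at 0 and 6.60 against 109 CPM in T cells. The T cells of control 1 were the high ones for both genes, and T cells of control 2 had no UMI of either. With control 2 included edgeR called 0 of 6927 genes, with 155 at an unadjusted p under 0.05, and DESeq2 called 0 on the 3 libraries, with 28 at that level.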

How the data were processed

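Libraries were made with a droplet-based 3' kit, per the labels' protocols. Reads had been processed with Cell Ranger 7.0.0 against mm10, per the submitters' processing notes, and the authors deposited UMI counts per gene and barcode (32285 genes). Barcodes with under 200 genes or at least 10% mitochondrial UMIs were left out. Doublets were scored with scanpy 1.11.5 and the top scores, at 0.8% per 1000 barcodes, were removed only as an alternative. Counts were summed per library and class, libraries with under 10 gated cells (control 2) left out, and tested with edgeR 4.0.16 in R 4.3.3 (TMM, filterByExpr, quasi-likelihood, Benjamini-Hochberg over all genes). Alternatives were DESeq2 1.42.0, RLE size factors, no filter, stricter gates, thinning and leaving out libraries. The scripts were tested on simulated data. CPM compares a gene between classes, not genes of different length.

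The members and gene lists were chosen with earlier results of these data known. Named genes were the 8 largest called changes per direction, at 50 CPM or more in the higher class or group. They had to go the same way in every library fitted, or, for adenosine against control, hold groups that did not overlap. The interaction had no such condition. Where few passed, genes of lowest unadjusted p filled up to 4 without that condition. Predicted genes, immunoglobulin genes and T cell receptor genes other than Tcrg genes were left out of this naming. Marker and list genes of highest level were added. Replicates are separate libraries and nothing says they came from separate animals, so p-values may measure technical spread only. Libraries shared 13 to 28 barcodes in pairs, and no gated cell's barcode was shared. Each natural killer library held 79933 to 440469 UMIs in gated cells. A few genes of the lists are not reported here.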

Additional observations from a re-analysis of the deposited data

Results flagged for a closer look

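A difference between natural killer and T cells in the change from control to adenosine, tested by edgeR's interaction term, met the adjusted threshold for 3 genes. The difference was 6.40 on the log2 scale for Rab27b (adjusted p = 7.7e-05), 6.44 for Meis1 (adjusted p = 0.016) and 6.68 for Arhgap6 (adjusted p = 0.049). Arhgap6 was at 65.8 and 11.5 CPM in natural killer cells of the adenosine libraries and 3.67 and 0 CPM in those of the control libraries, and at 5.94 and 6.17 CPM in T cells of the adenosine libraries and 73.6 and 0 CPM in those of the control libraries. For each of the 3 genes the high T cell value came from control library 1 alone, and with control library 2 included no gene was called. The cause was not tested.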

How the results depend on the processing

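The log2 ratio of the natural killer share stayed above 0 under each alternative tried, between 0.08 (share of natural killer, T and B cells) and 1.30 (cells thinned to 1500 UMIs before the gate), and between 0.40 and 2.45 with 1 library left out. No exact permutation test of it reached the threshold, which 2 libraries a group cannot do. Thinning also removes Cd3 UMIs, so a cell that the gate leaves out can enter it. With thinning the gate held 64 and 40 cells in the adenosine libraries, against 72 and 30 without it. In the control libraries it held 37 and 6 cells, against 39 and 7. The number of genes called between adenosine and control natural killer cells, 0 in the analysis as planned, was 4 with DESeq2, 28 with at least 3 gate UMIs, 14 without cells of high doublet score, 30 with no filter on low counts, 30 with RLE size factors and 27 without cells with Trac, Cd8a or Cd8b1. With control 2 included, an alternative chosen after seeing the data like those with Trac, it was 0, with 11 under a replicate block, 21 without adenosine replicate 1, 18 without adenosine replicate 2 and 140 without control replicate 1. The labels do not say that a replicate number marks a shared animal or day. Natural killer against T cells gave 733 calls with no filter, 239 with no library block and 103 to 781 with 1 library left out, against 385. The interaction gave 0 calls with control 2 included (155 at an unadjusted p under 0.05), with DESeq2 (28) and with RLE size factors (172), 1 with at least 3 gate UMIs, 5 without high doublet scores, 6 with no filter and 1 without cells with Trac, Cd8a or Cd8b1, against 3. With control 2 included, the log2 difference between adenosine and control turned to -3.30 for Ifitm1 and -1.84 for Ifitm2 (-1.38 and -0.81 with the replicate block, -5.49 and -1.88 without adenosine replicate 1, -2.60 and -1.83 without adenosine replicate 2, -4.28 and -2.89 without control replicate 1). Without control replicate 1 it turned to 4.37 for Ngp and 6.48 for Cybb, and the interaction for Ltf turned to 0.16 without high doublet scores. The cause was not tested. Of 80 genes named or listed in the comparison with T cells, none reversed and 36 kept their call under each alternative. Leaving out a library of the 3-library fits of adenosine against control, and of the interaction, left no fit with residual degrees of freedom, and those were not run. Depth limits the lower genes: 3 UMIs are 6.81 to 37.5 CPM in natural killer cells, by library.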
